A study of Danio rerio with 16 samples.

Results

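The genes described here encode keratins and claudins, the filament and tight junction proteins of epithelia. They were chosen by name and count: symbols that begin with krt, cyt1 or cldn, without cldn5b, and with at least 10 counts summed over the libraries. Earlier results of these data were known when this choice was made. Of the 32520 genes in the table, 57 symbols fitted the name and 55 had enough counts, namely 23 keratin genes, 29 claudin genes and 3 genes whose names only resemble these families (krtcap2, cldnd1a and cldnd1b). cldn7a, with 9 counts, and cldn18, with 0 counts, fell under the minimum.

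Whole zebrafish embryos of 8 genotypes were sampled at 15 hpf (hours post fertilization), and each genotype gave 2 RNA-seq libraries, 16 in all. The genotypes combined mutant and intact copies of the transcriptional repressor genes gfi1aa, gfi1b and gfi1ab in all ways. The gfi1aa related mutants were gfi1aa-/-, gfi1aa/1b DM (lacking gfi1aa and gfi1b), gfi1aa/1ab DM (lacking gfi1aa and gfi1ab) and gfi1 TM (lacking all of them). The gfi1aa unrelated mutants, which keep gfi1aa, were gfi1b/1ab DM (lacking gfi1b and gfi1ab), gfi1ab-/- and gfi1b-/-, and WT embryos completed the set. The alleles were gfi1aa smu10, gfi1b smu11 and gfi1ab smu12, each 1 mutant line, and each mutant carried its mutations in every cell of the embryo. Single mutants were sorted by genotype out of crosses between heterozygous parents. gfi1aa/1b DM embryos were sorted out of crosses between parents that already lacked gfi1b. gfi1aa/1ab DM embryos came from parents that already lacked gfi1ab, and gfi1 TM embryos from parents that already lacked gfi1aa and gfi1b. The paper names no cross for gfi1b/1ab DM. Nothing in the labels says that the 2 libraries of a genotype came from separate clutches, so p-values measure the spread between these libraries, which may be technical. Each mutant was set against the same 2 WT libraries. The paper calls the WT embryos wild type siblings and does not say of which cross. Genotypes therefore differed in parentage as well as in their own mutations, and the part of parentage was not tested.

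Keratins are the intermediate filament proteins of epithelial cells, built from a type I and a type II chain that pair with each other. In the zebrafish embryo they fill the enveloping layer (periderm), the flat outer cell sheet, and the basal epidermis beneath it, and the simple epithelial pair keratin 8 and keratin 18 is also found in inner tissues. Claudins span the membrane and form the strands of tight junctions, where each kind sets which ions pass between the cells. Because whole embryos were sequenced, fewer cells of a type and less RNA per cell cannot be told apart.

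Total counts were 15657371 to 22524501 per library, and replicates differed by a standard deviation of 0.347 (gfi1aa-/-) to 0.602 (gfi1 TM) on the log2 scale. The mutations did not remove the transcripts they target, and the levels with and without each mutation overlapped. These transcripts therefore could not check the label of a library. gfi1aa was lower without gfi1aa than with it (log2 fold change -0.27, adjusted p = 0.0377), gfi1ab was higher without gfi1ab (0.49, adjusted p = 0.0216), and gfi1b showed 0.06 (adjusted p = 0.814). Epidermis and periderm genes outside both families were present in every library, with sums of 3317 to 4081 CPM over the gfi1aa related libraries and 3382 to 3875 CPM over the other 8. CPM are counts per 1000000 library counts after scaling. They are not divided by gene length, so levels are compared between libraries and never between genes.

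Keratin genes took a far larger part of the reads than claudin genes. Keratin counts made up 2.67% and 2.93% of all counts in gfi1aa/1ab DM, 2.62% for each gfi1aa/1b DM library, 2.20% and 2.44% for gfi1 TM and 1.98% and 2.15% for gfi1aa-/-. The share was 2.34% and 2.49% for gfi1b/1ab DM, 2.21% and 2.38% for gfi1ab-/-, 2.01% and 2.02% for gfi1b-/-, and 2.09% and 2.10% for WT. The gfi1aa/1ab DM and gfi1aa/1b DM libraries thus lay above the other 12. Claudin counts made up 0.0891% to 0.106%. A pair of surface keratins dominated: krt4, a keratin of the superficial skin whose promoter is widely used for skin transgenes, held 39.4% of all keratin counts, and krt5, a type II epidermal keratin, held 27.1%. krt8 (9.26%), its type I partner krt18a.1 (5.55%) and krt92 (5.01%) followed. Among claudin counts, cldni held 22.4%, cldne 15.5%, cldn7b 13.1%, cldn5a 10.5% and cldnb 8.30%. These are shares of reads, which grow with gene length as well as with level.

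The expression filter kept 50 members among 19903 genes tested. It dropped krt98 (0 to 8 counts per library), krt18a.2 (0 to 5), cldn10l2 (0 to 4), cldn11a (0 to 5) and cldn15lb (0 to 6). Between genotypes, the ratio of the highest to the lowest mean level had a median of 2.50 over 21 keratins (1.24 to 23.7) and of 1.66 over 26 claudins (1.16 to 8.26). Keratin means peaked in gfi1aa/1ab DM for 15 of the 21 tested and were lowest in gfi1ab-/- for 8. Claudin means peaked in gfi1aa/1ab DM for 7 of 26 and were lowest in gfi1ab-/- for 8. The matching shares over all genes were not computed, and gfi1aa/1ab DM also had the most genes changed against WT (22.9%). A gene counts as changed at an adjusted p under 0.05 by edgeR's quasi-likelihood test over all genes.

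The comparison of gfi1aa related mutants with WT and gfi1aa unrelated mutants asks what loss of gfi1aa does on average over 4 backgrounds. Of 21 keratins, 9 rose and 0 fell, where 14.5% of all genes tested changed (7.08% higher, 7.47% lower). The median keratin log2 fold change was 0.24, while that of all genes was 0.00. Those that rose were krt94, krt91, cyt1l, krt18a.1, krt17, krt8, krt99, krt97 and krt92. No keratin had its 8 gfi1aa related libraries wholly above or below the other 8, as 0.538% of all genes did.

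krt94 showed the largest rise. It had 10.3 and 11.6 CPM in gfi1aa-/-, 3.03 and 4.08 for gfi1aa/1b DM, 6.81 and 5.43 for gfi1aa/1ab DM and 4.17 and 6.61 for gfi1 TM. Without loss of gfi1aa it had 3.16 and 2.44 CPM in gfi1b-/-, 1.98 and 1.57 for gfi1ab-/-, 1.36 and 2.39 for gfi1b/1ab DM and 4.99 and 2.81 for WT. Only the WT library at 4.99 CPM and the gfi1b-/- library at 3.16 CPM reached into the range of the gfi1aa related mutants. The average log2 fold change was 1.29 ± 0.16 (SE, adjusted p = 0.000125). By background it was 1.50 for gfi1aa-/- against WT, 0.36 for gfi1aa/1b DM against gfi1b-/- (adjusted p = 0.618), 1.79 for gfi1aa/1ab DM against gfi1ab-/- and 1.51 for gfi1 TM against gfi1b/1ab DM, so that it missed the threshold in 1 background.

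krt8 and krt18a.1, which encode partner chains and lie next to each other, moved alike in size in some genotypes and not in others. krt8 had 1627 and 1832 CPM in gfi1aa-/-, 2648 and 2720 for gfi1aa/1b DM, 3218 and 2719 for gfi1aa/1ab DM and 2360 and 2404 for gfi1 TM. It had 1807 and 1776 CPM in gfi1b-/-, 2126 and 2174 for gfi1ab-/-, 2234 and 1837 for gfi1b/1ab DM and 1693 and 1586 for WT. The gfi1aa-/- libraries sat with gfi1b-/- and WT, and the other gfi1aa related libraries sat above all 8 libraries with gfi1aa. The average was 0.34 ± 0.05 (SE, adjusted p = 0.000276), with 0.08 in gfi1aa-/- against WT (adjusted p = 0.665), 0.58 in gfi1aa/1b DM against gfi1b-/- (adjusted p = 0.0025), 0.47 (adjusted p = 0.00478) with gfi1ab-/- as the background and 0.23 in gfi1 TM against gfi1b/1ab DM (adjusted p = 0.236).

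krt18a.1 (ENSDARG00000018404) had 1081 and 1201 CPM in gfi1aa-/-, 1765 and 1818 for gfi1aa/1b DM, 1796 and 1999 for gfi1aa/1ab DM and 1146 and 1242 for gfi1 TM. It had 1087 and 1075 CPM in gfi1b-/-, 1228 and 1362 for gfi1ab-/-, 1349 and 1202 for gfi1b/1ab DM and 895 and 622 for WT. All mutant libraries lay above both WT libraries, which themselves differed. The average for loss of gfi1aa was 0.44 ± 0.06 (SE, adjusted p = 0.000359), and gfi1 TM against gfi1b/1ab DM gave -0.10 (adjusted p = 0.755).

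**Figure D1:**
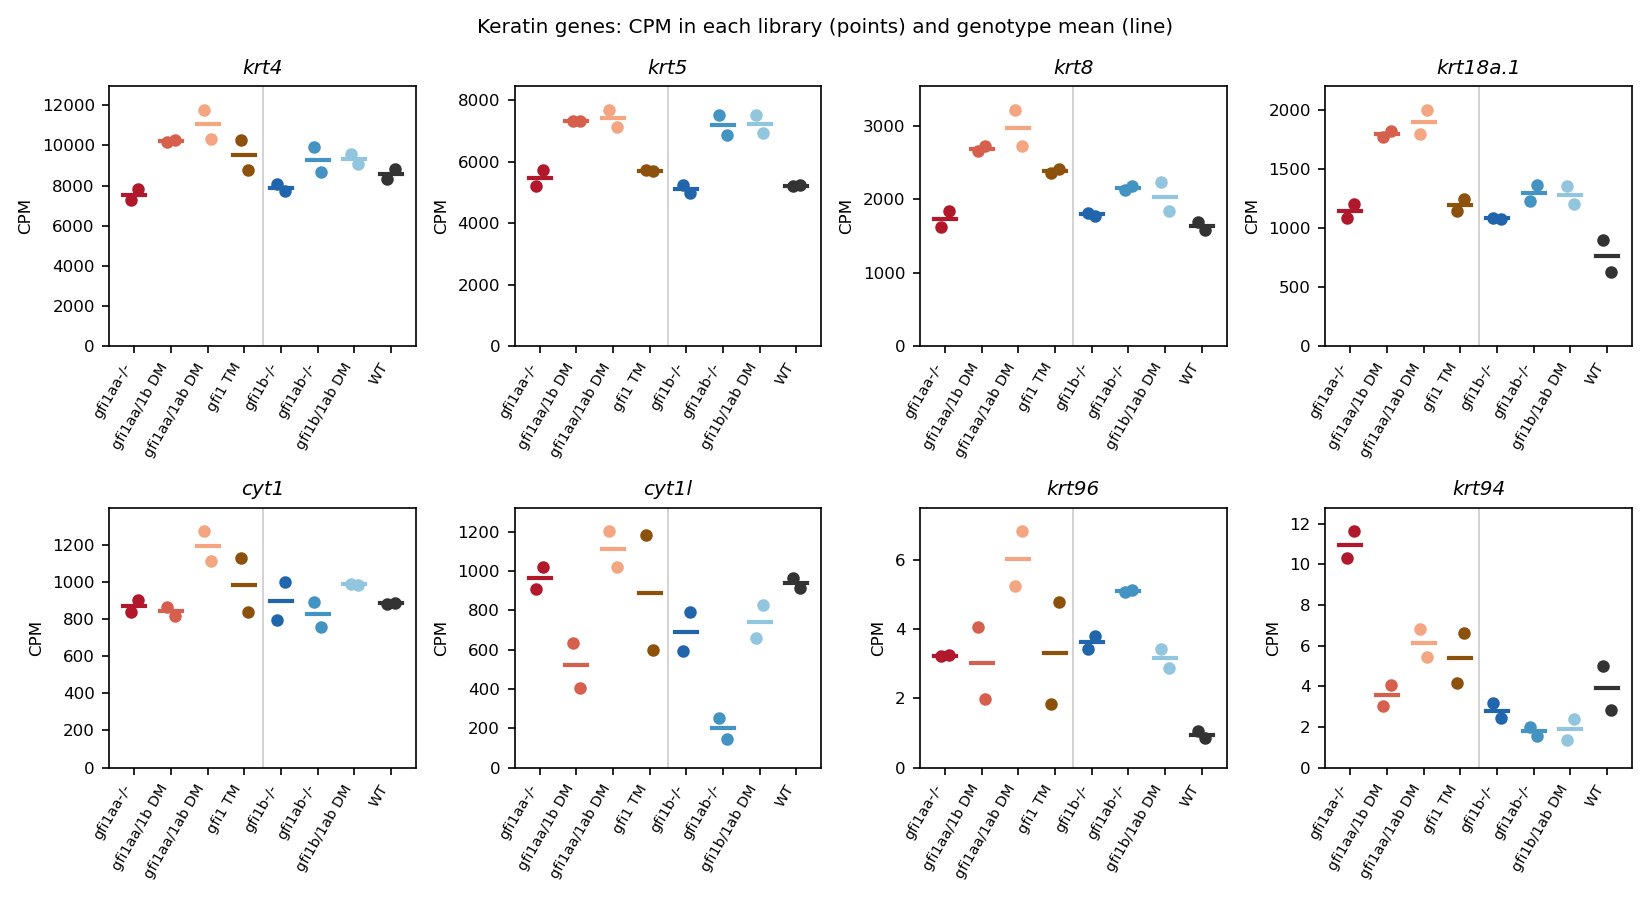
CPM of 8 keratin genes in each library, with gfi1aa related mutants left of the grey line and gfi1aa unrelated mutants and WT right of it; points are the 2 libraries of a genotype and the line is their mean. krt18a.1 and krt96 lie lowest in WT (895 and 622 CPM, and 1.05 and 0.857 CPM), cyt1l lies lowest in gfi1ab-/- (255 and 147 CPM), and krt94 lies highest in gfi1aa-/- (10.3 and 11.6 CPM).

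Other keratins rose by less. krt99 (0.24, adjusted p = 0.005), krt97 (0.22, adjusted p = 0.0131) and krt92 (0.16, adjusted p = 0.0286) completed the list, the call of krt92 being lost in 10 of 16 fits with 1 library left out. In gfi1aa-/-, krt99 (524 and 555 CPM) and krt92 (982 and 1038 CPM) lay below both WT libraries (617 and 620, and 1068 and 1065 CPM). krt97 had 215 and 242 CPM in gfi1aa-/- and 263 and 237 CPM in WT. Of the keratins that rose on average, krt94 and krt18a.1 alone were called higher in gfi1aa-/- against WT. krt4 (0.12, adjusted p = 0.0819) and krt5 (0.07, adjusted p = 0.161) did not pass the test. krtt1c19e, a type I keratin of basal keratinocytes, showed 0.50 (adjusted p = 0.051). With both gfi1aa/1ab DM libraries left out, cyt1l, krt99, krt97 and krt92 lost their calls and 5 keratins stayed called. Leaving out a genotype means that gfi1b and gfi1ab loss no longer balance between the sides. gfi1ab-/-, the lowest genotype for krt91 and krt17, also stayed in without its match. The calls that stayed therefore do not show a rise outside that background. With all 8 libraries of a side fitted as 1 group, 1 keratin (krt94) stayed called, since the differences between genotypes then count as spread.

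Of the claudins, 5 of 26 (19.2%) rose without gfi1aa and 0 fell, where 14.5% of all genes changed (7.08% higher, 7.47% lower). The median claudin log2 fold change was 0.11. cldn7b, an epithelial claudin, had 120 to 156 CPM (median 142) without gfi1aa and 109 to 123 CPM (median 117) with it. Only the lowest gfi1 TM library overlapped the other side, and the difference was 0.25 ± 0.04 (SE, adjusted p = 0.000759). cldn15la showed 0.96 ± 0.26 (adjusted p = 0.0234), on 0.307 to 1.23 CPM (median 0.403) without gfi1aa and 0.117 to 0.817 CPM (median 0.200) with it. This low gene was highest in gfi1aa/1ab DM (0.844 and 1.23 CPM) and low in gfi1ab-/- (0.117 and 0.135 CPM), and the call was lost with gfi1aa/1ab DM left out (0.59, adjusted p = 0.255). cldnc (0.22, adjusted p = 0.0446), cldn12 (0.14, adjusted p = 0.0289) and cldne (0.13, adjusted p = 0.0151) rose on average by small amounts. For cldne, the gfi1aa-/- (145 and 146 CPM) and gfi1aa/1b DM (157 and 160 CPM) libraries nevertheless lay below both WT libraries (164 and 169 CPM). With 1 library left out at a time, the call of cldnc was lost in 14 of 16 fits, that of cldn12 in 10 and that of cldne in 0. Leaving out gfi1aa/1ab DM left 2 claudins called, leaving out WT 3, DESeq2 called 3, and 1 group per side left 1 (cldn7b). krtcap2, which encodes a subunit of the enzyme that attaches sugar chains to proteins and is no keratin, rose by 0.24 (adjusted p = 0.00527).

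**Figure D2:**
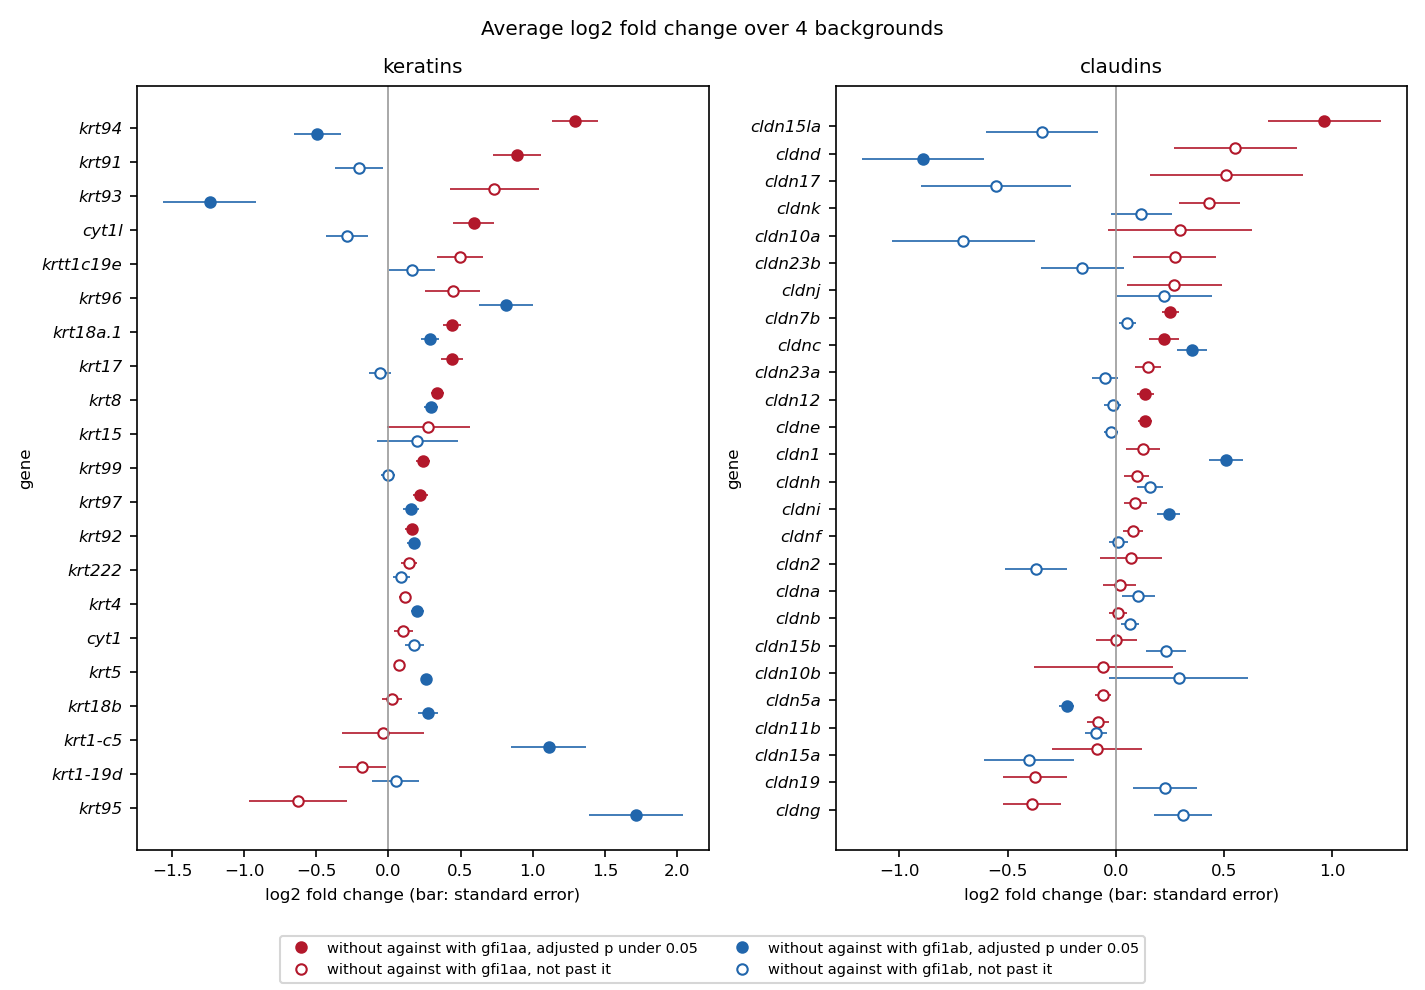
Average log2 fold change over 4 backgrounds of each tested keratin (left) and claudin (right) for genotypes without against with gfi1aa (red) and without against with gfi1ab (blue); bars are standard errors and filled points have an adjusted p under 0.05. For gfi1aa, all filled points lie right of 0 (9 keratins and 5 claudins), and for gfi1ab, krt95 has the highest value (1.71) and krt93 the lowest (-1.24).

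The comparison of the 4 genotypes without gfi1ab with the 4 that keep it asks the same of gfi1ab. Keratins changed in 12 of 21 cases (10 higher, 2 lower), where 23.9% of all genes did (12.7% higher, 11.2% lower), and their median was 0.17 against 0.01 for all genes. krt95 (1.71), krt1-c5 (1.11) and krt96 (0.81) rose the most, all at low counts, and krt8 (0.30), krt18a.1 (0.29), krt18b (0.27), krt5 (0.26), krt4 (0.20), krt92 (0.17) and krt97 (0.16) followed. krt93 (-1.24, adjusted p = 0.013) and krt94 (-0.49, adjusted p = 0.0382) fell.

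The surface keratin krt5 (ENSDARG00000058371) showed the genotypes at separate levels. It had 7526 and 6856 CPM in gfi1ab-/-, 7691 and 7115 for gfi1aa/1ab DM, 7503 and 6930 for gfi1b/1ab DM and 5714 and 5694 for gfi1 TM. With gfi1ab intact it had 5210 and 5728 CPM in gfi1aa-/-, 5231 and 4988 for gfi1b-/-, 7314 and 7331 for gfi1aa/1b DM and 5192 and 5228 for WT. Libraries of all DM genotypes and gfi1ab-/- thus lay at 6856 to 7691 CPM, and those of gfi1aa-/-, gfi1b-/-, gfi1 TM and WT at 4988 to 5728 CPM. The average for loss of gfi1ab was 0.26 ± 0.03 (SE, adjusted p = 0.000145). gfi1 TM lay below gfi1b/1ab DM by -0.34 on the log2 scale (adjusted p = 0.0187), while gfi1aa/1b DM lay above gfi1b-/- by 0.52 (adjusted p = 0.000525).

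Among claudins, 5 of 26 (19.2%) changed without gfi1ab (3 higher, 2 lower). This was a smaller share than the 23.9% of all genes that changed (12.7% higher, 11.2% lower). cldn5a (ENSDARG00000043716), a claudin of brain barriers, was the only member in either family whose sides did not overlap. It had 83.1 to 98.6 CPM (median 94.7) without gfi1ab and 101 to 114 CPM (median 111) with it, a log2 fold change of -0.23 ± 0.04 (SE, adjusted p = 0.000577). All 8 libraries lay below the other 8, as in 0.467% of all genes tested (0.899% in either direction). cldn1, which in mammals seals the skin barrier, rose by 0.51 ± 0.08 (SE, adjusted p = 0.000577), with 10.6 to 14.4 CPM (median 12.7) without gfi1ab and 7.11 to 11.8 CPM (median 8.42) with it. cldnc rose by 0.35 (adjusted p = 0.0027) and cldni by 0.24 (adjusted p = 0.00484), and cldnd (-0.89, adjusted p = 0.0329) fell at under 1 CPM. cldnd1b fell by 0.31 on the log2 scale (adjusted p = 0.000431).

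Some of these calls were lost when a single genotype was left out, which also unbalances the other mutations between the sides. Without the WT libraries, krt93, krt96, krt18a.1, krt97, cldnd and cldni were no longer called for gfi1ab, and without gfi1aa/1ab DM, krt96, krt18a.1, krt18b, krt92 and krt97 were not. With 1 library left out at a time, the calls of krt97 (in 11 of 16 fits), krt94 (10), cldnd (10) and krt93 (1) were lost. With 1 group per side, 1 keratin (krt1-c5) and 3 claudins (cldn1, cldnc and cldn5a) stayed called.

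Loss of gfi1b changed members at about the share of all genes or below it. Of 21 keratins, 1 fell and 0 rose (4.76%). Of 26 claudins, 1 rose and 1 fell (7.69%), where 9.75% of all genes changed (4.71% higher, 5.03% lower). At an unadjusted p under 0.05 there were 4 keratins and 6 claudins, and DESeq2 called 1 keratin and 2 claudins. The share of all genes at an unadjusted p under 0.05 was not computed, so these counts are not read against it. cldn2, a claudin that forms pores for cations, rose by 0.69 ± 0.14 (SE, adjusted p = 0.00789), with 3.54 to 7.85 CPM (median 5.52) without gfi1b and 1.35 to 4.93 CPM (median 3.74) with it. cldnb, the claudin that marks the lateral line primordium and skin, fell by 0.19 on the log2 scale (adjusted p = 0.0115), with 67.4 to 81.5 CPM (median 76.6) without gfi1b and 76.2 to 95.0 CPM (median 86.7) with it. krt94 showed -0.55 (adjusted p = 0.045), a call that ended with the replicate block (adjusted p = 0.0597), without gfi1aa/1ab DM and in 13 of 16 fits with 1 library left out, and krtcap2 fell by 0.24 (adjusted p = 0.00738).

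Against WT, 3 keratins changed in the same direction in all 7 mutants. krt18a.1 and krt96 rose in each, as did 0.708% of all genes, and krt93 fell in each, as did 0.502%. krt96 had 1.84 to 6.84 CPM (median 3.62) over the 14 mutant libraries and 1.05 and 0.857 CPM in WT. krt93 had 0.0583 to 0.869 CPM (median 0.319) over the mutant libraries and 1.90 and 1.62 CPM in WT, that is, 1 to 17 counts against 38 and 34. The 14 mutant libraries of krt18a.1 and krt96 lay above both WT libraries, as in 4.94% of all genes, and those of krt93 below them, as in 4.17%.

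The sizes varied by mutant. krt18a.1 rose by 0.51 (gfi1b-/-) to 1.32 (gfi1aa/1ab DM), and krt96 by 1.64 (gfi1aa/1b DM) to 2.66 (gfi1aa/1ab DM) on the log2 scale. krt93 was nearly lost in gfi1ab-/-, with 1 and 2 counts, a ratio to WT of 0.0434 (95% interval 0.00874 to 0.132, counting error only), and in gfi1b-/-, with 3 and 2 counts and a ratio of 0.0733 (0.0231 to 0.179). It was least reduced in gfi1aa-/-, with 17 and 11 counts and a ratio of 0.374 (0.233 to 0.586). These results rest on 2 WT libraries: without WT replicate 2, krt18a.1 passed in 5 of 7 mutants, and without either WT library krt96 passed in 2 and krt93 in 5. By DESeq2, krt93 passed in 5 of 7, missing the threshold in gfi1aa-/- and gfi1aa/1b DM (highest adjusted p = 0.285).

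**Figure D3:**
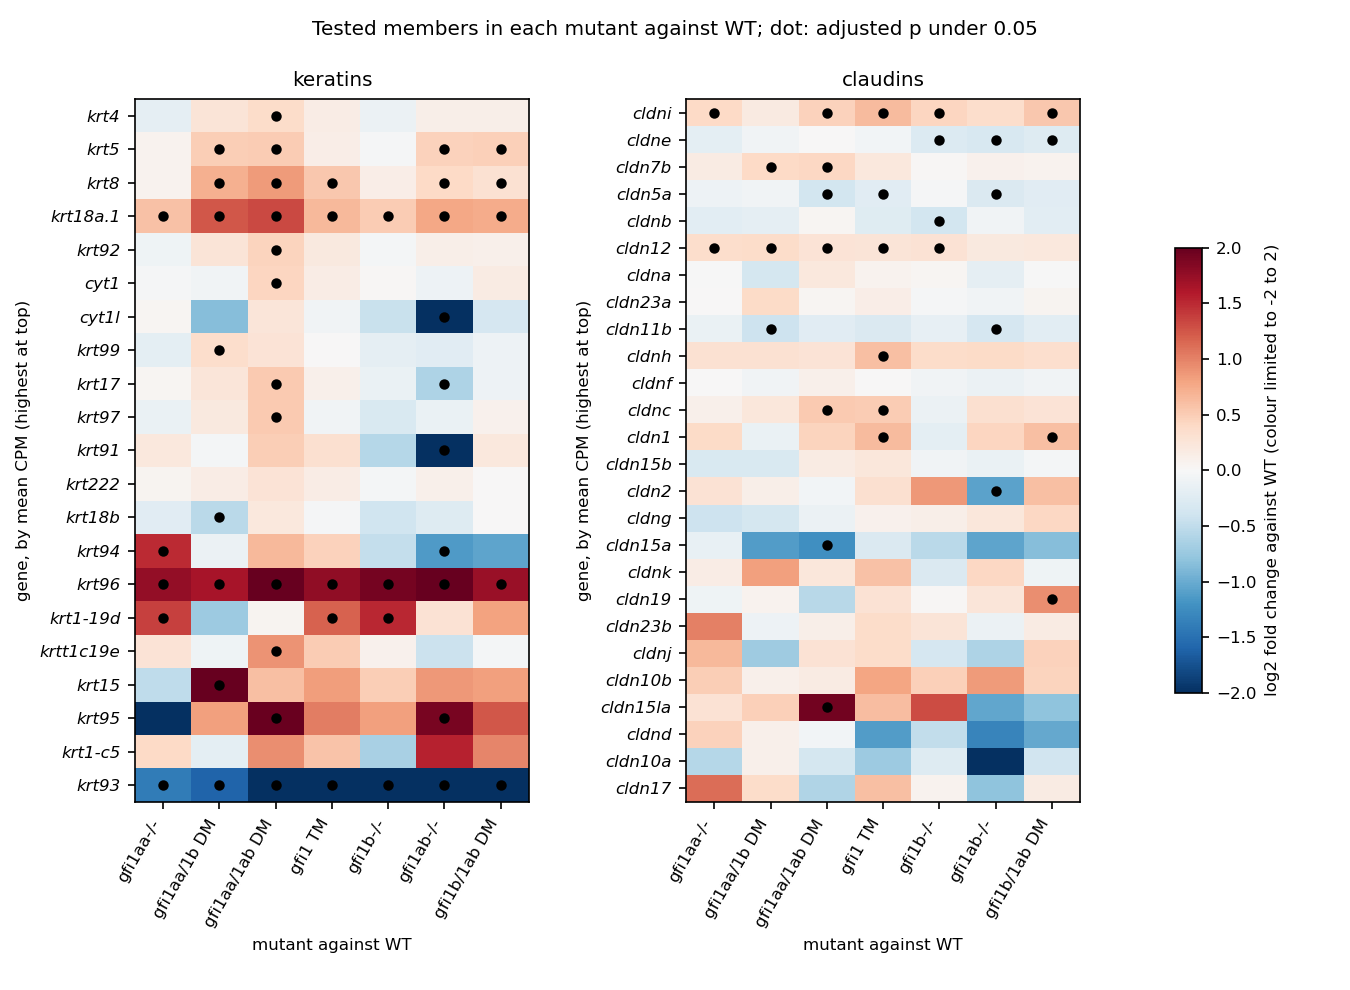
Log2 fold change of every tested keratin (left) and claudin (right) in each mutant against WT, with genes ordered by mean CPM; red is higher and blue lower in the mutant, colours stop at -2 and 2, and dots mark an adjusted p under 0.05. krt18a.1 and krt96 are red with a dot in all 7 columns and krt93 blue with a dot in all 7.

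The number of members that changed against WT differed by mutant. In gfi1aa/1ab DM, 11 keratins rose and 1 fell, and 5 claudins rose and 2 fell, where 22.9% of all genes changed (11.1% higher, 11.9% lower). In gfi1aa/1b DM the keratins gave 6 and 2 and the claudins 2 and 1 (all genes 9.69%, with 4.96% higher, 4.73% lower), and in gfi1 TM 4 and 1 and 5 and 1 (all genes 13.1%, with 7.16% higher, 5.95% lower). In gfi1aa-/- they gave 4 and 1 and 2 and 0 (all genes 12.1%, with 6.47% higher, 5.66% lower). gfi1ab-/- stood apart in its balance, with 5 keratins higher and 5 lower and 0 claudins higher and 4 lower (all genes 10.3%, with 5.46% higher, 4.83% lower). gfi1b-/- gave 3 and 1 and 2 and 2 (all genes 9.46%, with 4.63% higher, 4.83% lower), and gfi1b/1ab DM 4 and 1 and 3 and 1 (all genes 10.6%, with 5.76% higher, 4.84% lower). The median keratin log2 fold change was 0.51 in gfi1aa/1ab DM, 0.20 in gfi1aa/1b DM, 0.19 in gfi1 TM, 0.04 in gfi1aa-/-, 0.12 in gfi1b/1ab DM, 0.10 in gfi1ab-/- and -0.04 in gfi1b-/-. That of all genes lay between -0.00169 (gfi1aa-/-) and 0.0124 (gfi1 TM).

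In gfi1ab-/- a few keratins fell steeply. cyt1l (ENSDARG00000036832), a type I cytokeratin of the enveloping layer, had 255 and 147 CPM in gfi1ab-/- and 965 and 912 CPM in WT, a log2 fold change of -2.23 ± 0.30 (SE, adjusted p = 0.000292). It lay at 407 to 1204 CPM in the other mutants, so the gfi1ab-/- libraries were below all others. krt91 had 7.06 and 3.82 CPM in gfi1ab-/- and 24.4 and 25.7 CPM in WT (-2.23 ± 0.37, adjusted p = 0.00135). krt17 had 365 and 324 CPM in gfi1ab-/- and 563 and 494 CPM in WT (-0.62 ± 0.15, adjusted p = 0.0174).

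These genes are neighbours. In the RefSeq annotation (assembly GRCz12tu, used for gene order only), krt1-19d, krtt1c19e, krt92, cyt1l, cyt1, krt17 and krt91 lie in this order with no other coding gene between them. The fall did not take in cyt1, which lies between cyt1l and krt17, or krt92, which lies just before cyt1l. cyt1, the nearest relative of cyt1l by name and place, had 892 and 758 CPM in gfi1ab-/- and 882 and 885 CPM in WT, and krt92 had 1226 and 1078 CPM in gfi1ab-/- and 1068 and 1065 CPM in WT. Reads that could have come from several neighbours were not counted for any gene, so values of close copies remain uncertain.

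The other genotypes without gfi1ab lay higher than gfi1ab-/- for these genes. gfi1b/1ab DM had 661 and 825 CPM of cyt1l and 490 and 492 CPM of krt17, below both WT libraries but without passing the test. gfi1aa/1ab DM exceeded gfi1ab-/- by 2.72 ± 0.37 (SE, adjusted p = 0.000358) for krt91, 2.47 ± 0.30 (adjusted p = 0.000197) for cyt1l and 1.14 ± 0.15 (adjusted p = 0.000358) for krt17. In the other backgrounds loss of gfi1aa gave cyt1l 0.04 (gfi1aa-/- against WT, adjusted p = 0.956), -0.41 (gfi1aa/1b DM against gfi1b-/-, adjusted p = 0.491) and 0.26 (gfi1 TM against gfi1b/1ab DM, adjusted p = 0.704). The average rises without gfi1aa of krt91 (0.89 ± 0.17 SE, adjusted p = 0.00265), cyt1l (0.59 ± 0.14, adjusted p = 0.0139) and krt17 (0.44 ± 0.08, adjusted p = 0.0017) thus had their largest part in 1 of 4 backgrounds. The gfi1 TM libraries differed from each other for these genes, with 1183 and 596 CPM of cyt1l and 42.1 and 19.9 CPM of krt91. The lower values were those of gfi1 TM replicate 2. That library had the lowest share of reads on genes (77.3%, median 80.0%). It also had the highest share of reads that mapped to several places (5.57%, median 4.14%). The part of this in the values was not tested.

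**Figure D4:**
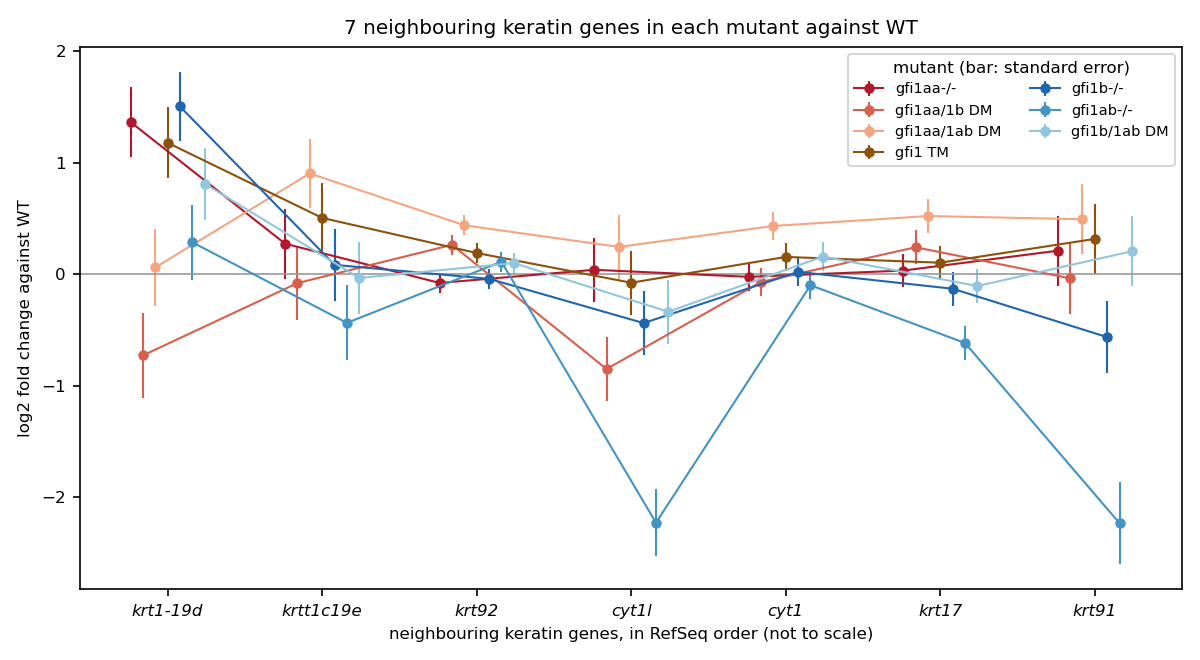
Log2 fold change against WT (vertical axis; bars are standard errors) of 7 keratin genes in their RefSeq order (horizontal axis, not to scale), 1 line per mutant. gfi1ab-/- drops to -2.23 at cyt1l and at krt91 and to -0.62 at krt17. It lies near 0 at krt92, just before cyt1l, and at cyt1, between cyt1l and krt17.

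krt1-19d, at the end of the same row, followed another pattern. It had 4.91 and 5.71 CPM in gfi1aa-/-, 1.23 and 1.26 for gfi1aa/1b DM, 2.29 and 2.02 for gfi1aa/1ab DM and 4.95 and 4.39 for gfi1 TM. It had 6.37 and 5.36 CPM in gfi1b-/-, 2.57 and 2.47 for gfi1ab-/-, 2.37 and 4.87 for gfi1b/1ab DM and 1.40 and 2.71 for WT. Each of gfi1aa-/- (1.36, adjusted p = 0.00959), gfi1b-/- (1.50, adjusted p = 0.0075) and gfi1 TM (1.18, adjusted p = 0.0251) lay above WT, while gfi1aa/1b DM lay below gfi1b-/- (-2.23 ± 0.34 SE, adjusted p = 0.00214).

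The difference between backgrounds was itself tested, averaged over both states of the remaining gene. For the effect of losing gfi1aa with gfi1b lost rather than intact, it passed for krt1-19d, cyt1l, cldn2 and cldnd1b (4 members of 50, and 4.02% of all genes), and with gfi1ab lost rather than intact for cyt1l, krt5, krt18a.1, cldn15la and cldne (5 members, and 8.60% of all genes).

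Low keratins gave further large ratios. krt15, another type I keratin, had 40 and 37 counts in gfi1aa/1b DM (2.58 and 1.94 CPM) and 7 and 11 counts in WT (0.350 and 0.524 CPM), a ratio of 5.08 (95% interval 3.01 to 9.01) and a log2 fold change of 2.34 (adjusted p = 0.0105). krt95 had 27 and 26 counts in gfi1aa/1ab DM, 23 and 35 in gfi1ab-/-, and 2 and 14 in WT, and rose by 1.97 (adjusted p = 0.0243) and 1.90 (adjusted p = 0.0496) in these mutants. The 2 WT libraries stood far apart for krt95. krt15, krt93, krt94, krt95, krt98 and krt99 share a neighbourhood that holds 18 other coding genes, yet krt93 fell in all mutants while krt94 fell in gfi1ab-/- (-1.14, adjusted p = 0.0465) and rose in gfi1aa-/-.

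The claudins most often changed against WT were cldni and cldn12. cldni (ENSDARG00000054616) had 212 and 224 CPM in gfi1aa-/-, 189 and 188 for gfi1aa/1b DM, 260 and 198 for gfi1aa/1ab DM and 279 and 238 for gfi1 TM. It had 226 and 222 CPM in gfi1b-/-, 218 and 205 for gfi1ab-/-, 251 and 232 for gfi1b/1ab DM and 174 and 159 for WT. Every mutant library was above both WT libraries, as in 4.94% of all genes. The rise passed the test in 5 of 7 mutants (2.65% of all genes rose in at least 5), with log2 fold changes of 0.39 (gfi1aa-/-) to 0.64 (gfi1 TM). cldn12 had 70.9 to 89.5 CPM (median 77.6) in the mutant libraries and 65.2 and 64.1 CPM in WT, likewise without overlap. It passed in gfi1aa-/-, gfi1aa/1b DM, gfi1aa/1ab DM, gfi1 TM and gfi1b-/-. Both genes rest on the same 2 WT libraries, and several of these calls were lost with 1 library left out. In such fits the log2 fold change was 0.33 to 0.46 for cldni in gfi1aa-/- and 0.25 to 0.32 for cldn12 in gfi1b-/-.

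cldne fell in gfi1b-/- (141 and 135 CPM), gfi1ab-/- (139 and 129 CPM) and gfi1b/1ab DM (138 and 139 CPM) against 164 and 169 CPM in WT, by 0.26 to 0.32 on the log2 scale. The gfi1aa-/- (145 and 146 CPM) and gfi1aa/1b DM (157 and 160 CPM) libraries also lay below both WT libraries without passing the test. gfi1aa/1ab DM (176 and 158 CPM) exceeded gfi1ab-/- by 0.32 (adjusted p = 0.00608). cldn7b rose in gfi1aa/1b DM (0.40, adjusted p = 0.0048) and gfi1aa/1ab DM (0.42, adjusted p = 0.00186). cldn2 fell in gfi1ab-/-, with 2.27 and 1.35 CPM, against 3.30 and 4.19 CPM in WT (-1.07, adjusted p = 0.0401). cldn15a, a claudin of the gut lining, fell in gfi1aa/1ab DM, with 1.09 and 3.59 CPM against 6.14 and 4.90 CPM in WT (-1.22, adjusted p = 0.0465), where the 2 mutant libraries stood far apart.

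**Figure D5:**
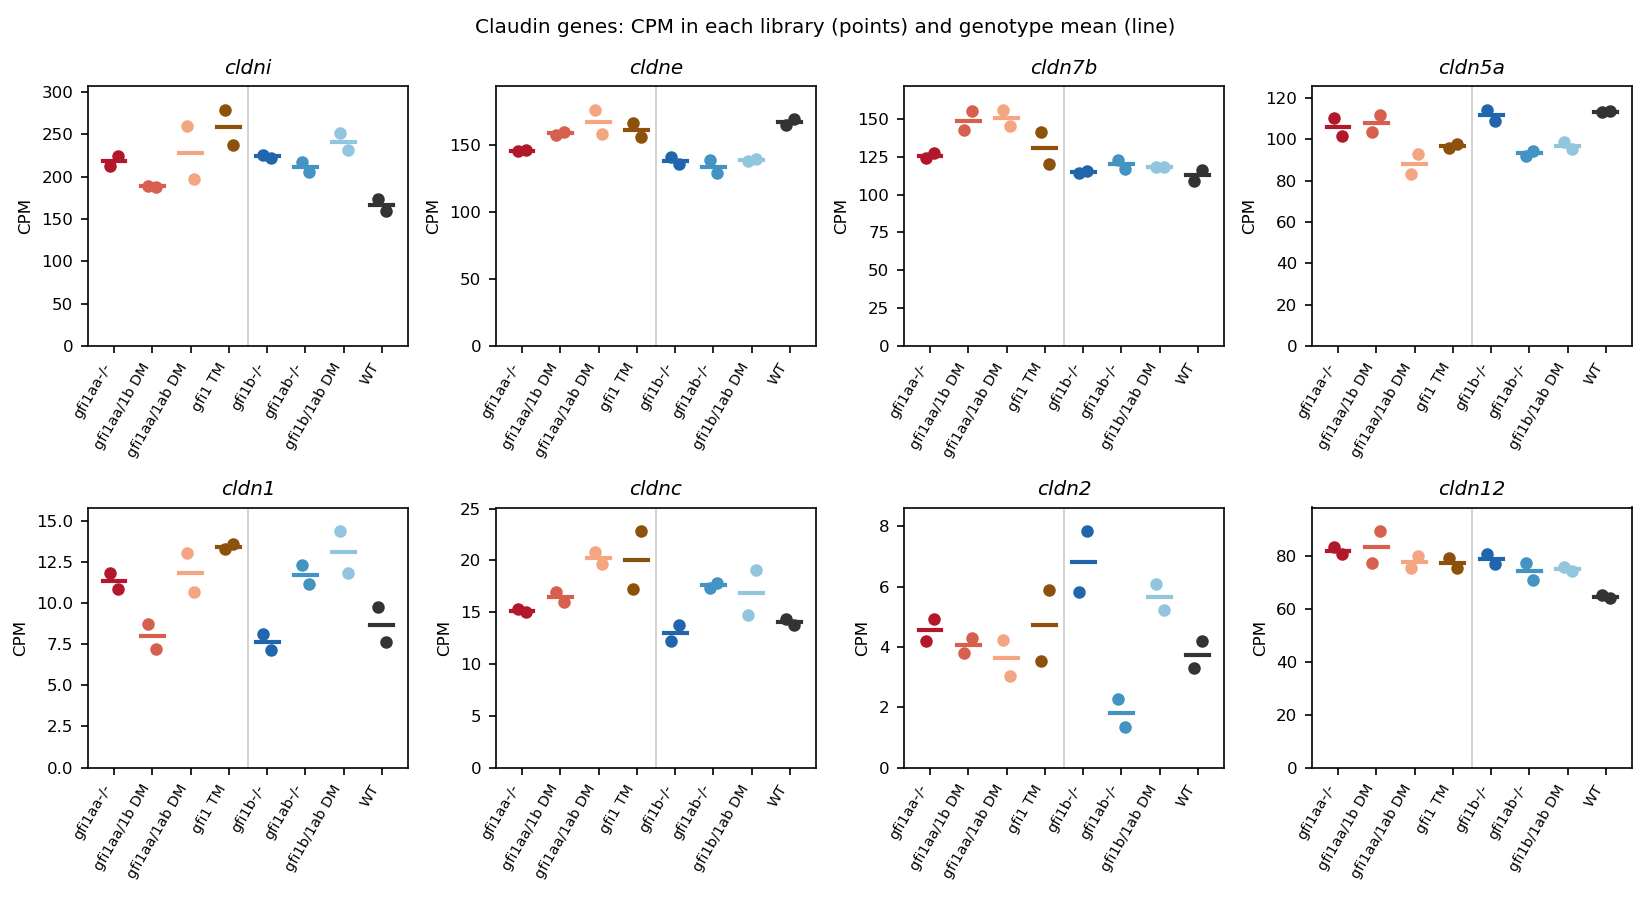
CPM of 8 claudin genes in each library, with gfi1aa related mutants left of the grey line and gfi1aa unrelated mutants and WT right of it; points are the 2 libraries of a genotype and the line is their mean. cldni and cldn12 lie lowest in WT (174 and 159 CPM, and 65.2 and 64.1 CPM), and cldn2 lies lowest in gfi1ab-/- (2.27 and 1.35 CPM).

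Loss of gfi1aa within a mutant background gave unequal counts. By the crosses given above, gfi1aa/1ab DM and gfi1ab-/- also had parents of unlike genotype, as did gfi1aa/1b DM and gfi1b-/-. Loss of gfi1aa and parentage cannot be told apart there. In gfi1aa/1ab DM against gfi1ab-/-, 13 keratins and 4 claudins rose and 0 fell in either family, where 14.1% of all genes changed (5.88% higher, 8.24% lower). The largest rises were those of krt91, cyt1l, krt93 (9 and 6 counts against 1 and 2) and krt94 (1.79), and among claudins of cldn15la (2.98, adjusted p = 0.00202) and cldn2 (1.02, adjusted p = 0.0451). With 1 library left out at a time, the call of cldn2 was lost in 13 of 16 fits and that of krt93 in 10. In gfi1aa/1b DM against gfi1b-/-, 7 keratins rose and 1 fell and 2 claudins rose (all genes 4.67%, with 2.42% higher, 2.25% lower), among them krt15 (1.86, adjusted p = 0.0461), krt18a.1 (0.73, adjusted p = 0.00409), krt8 and cldnk (1.09, adjusted p = 0.04), a claudin of myelinating glia. The call of krt15 was lost in 12 of 16 fits with 1 library left out, and that of cldnk in 6. In gfi1 TM against gfi1b/1ab DM, krt94 rose and krt5 fell and 0 claudins changed (all genes 1.96%, with 1.05% higher, 0.909% lower). At an unadjusted p under 0.05 there were 5 claudins there, with no share of all genes computed. DESeq2 called 0 claudins there, and over all genes 206 higher and 194 lower.

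The lists of other genes are read against the 14.5% of all genes that changed without gfi1aa (7.08% higher, 7.47% lower). Of 28 epidermis and periderm genes, 7 rose without gfi1aa (evpla, spint1a, grhl3, grhl1, perp, st14a and grhl2b) and 3 fell (klf17, icn and epcam), with a median of 0.09, and their summed level overlapped between the sides as given above. The tight junction and filament lists lay near the share of all genes. Of 21 other tight junction genes, 2 rose (oclnb and lsr) and 2 fell (tjp1a and tjp1b), summing to 998 to 1258 CPM without gfi1aa and 1135 to 1211 CPM with it. Of 17 other intermediate filament genes, 0 rose and 2 fell (nefla and lmnb1), summing to 1399 to 1539 CPM without gfi1aa and 1302 to 1630 CPM with it. Among markers of other tissues that express keratins or claudins, 3 of 8 ionocyte genes rose (63.2 to 86.4 CPM without gfi1aa, 64.9 to 73.5 CPM with it), and 1 of 9 notochord genes rose and 4 fell (901 to 1940 CPM without gfi1aa, 1582 to 2160 CPM with it). All 9 endothelial genes rose, with 241 to 313 CPM without gfi1aa and 169 to 191 CPM with it. Of these, the paper had shown sox7, flt4, cdh5, clec14a, etv2 and egfl7 as raised in gfi1aa related mutants in these same libraries. Their rise was thus known when the list was made, unlike a list chosen without these data. The part of these cell types in the keratin and claudin values was not tested.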

How the data were processed

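Whole zebrafish embryos were collected at 15 hpf and RNA was sequenced with a kit that does not mark strand. The authors mapped reads to GRCz11 with STAR and deposited whole-number counts per gene for each library, which were used as deposited without normalization. The 16 count columns of the joined table were not used, and that table gave symbols only. Genotypes came from the sample labels. Counts were fitted with edgeR (4.0.16) in R (4.3.3): TMM scaling (factors 0.956 to 1.03), filterByExpr, and the quasi-likelihood test with 1 mean per genotype and 8 residual degrees of freedom. The threshold was 0.05 after Benjamini-Hochberg adjustment over 19903 genes. Averages weigh 4 genotype means per side equally. SE was computed as the fold change over the root of F. Intervals of count ratios are exact, at 95%, and cover counting error only.

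Replicate numbers did not pair the libraries: correlations of deviations over 28 genotype pairs were between -0.0908 and 0.0919.

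Members and gene lists were chosen with earlier results of these data known. The text names the 5 members per family with the most counts (no coding lengths were used, so not by level per length), those past the threshold for an average loss (at most 10), and up to 4 per single comparison. Further members are named where a count or pattern needed them. The 10 lists were epidermis and periderm, other tight junction, other intermediate filament, ionocyte, hatching gland, notochord, pronephros, otic, endothelium and skeletal muscle genes. Of the members, 54 matched RefSeq, 5 by synonym. Alternatives were DESeq2 (1.42.0), its size factors, no filter, a replicate block, 1 mean per side, only the libraries compared and each library left out. Leaving out WT or gfi1aa/1ab DM and the interaction tests were chosen after seeing the data. With a genotype left out, the sides of an average no longer hold the other mutations equally, so their effects mix into it. Tables and figures used Python (3.11.15).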

Additional observations from a re-analysis of the deposited data

Results flagged for a closer look

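For some members the change without gfi1aa differed with the state of a second gene, by edgeR's test of the difference between the effects. Both tests together gave 8 cases among 21 keratins and 26 claudins, where 4.02% of all genes passed for gfi1b and 8.60% for gfi1ab. This was close to the share of all genes, so the cases are not read as particular to these families. Each difference was averaged over both states of the remaining gene, so it can hide unlike backgrounds. With gfi1b lost rather than intact, the effect of losing gfi1aa was lower by -1.50 on the log2 scale for krt1-19d (adjusted p = 0.0214), -1.33 for cyt1l (adjusted p = 0.0206) and -1.17 for cldn2 (adjusted p = 0.0352). For krt1-19d, gfi1aa/1b DM lay below gfi1b-/- (-2.23), with gfi1ab intact. With gfi1ab lost, its gfi1 TM libraries (4.95 and 4.39 CPM) overlapped those of gfi1b/1ab DM (2.37 and 4.87 CPM). With gfi1ab lost rather than intact, the effect of losing gfi1aa was higher by 2.48 for cldn15la (adjusted p = 0.00942), 1.55 for cyt1l (adjusted p = 0.00464) and 0.27 for cldne (adjusted p = 0.0240), and lower by -0.44 for krt5 (adjusted p = 0.00126) and -0.43 for krt18a.1 (adjusted p = 0.0447). For krt5, gfi1 TM lay below gfi1b/1ab DM (-0.34), while gfi1aa/1ab DM (7691 and 7115 CPM) overlapped gfi1ab-/- (7526 and 6856 CPM). krt18a.1 rose from gfi1ab-/- (1228 and 1362 CPM) to gfi1aa/1ab DM (1796 and 1999 CPM). It did not rise from gfi1b/1ab DM (1349 and 1202 CPM) to gfi1 TM (1146 and 1242 CPM). gfi1ab-/-, the lowest genotype for cyt1l, enters both of its differences.

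A single library stood apart in 2 of 68 sets of 8 libraries, made from 34 named members on each side of the gfi1aa comparison, and chance alone marks about 1 in 20 such sets. WT replicate 2 had 47.2 CPM of cldn11b, the highest of the 8 libraries with gfi1aa. gfi1aa/1ab DM replicate 2 had 0.672 CPM of cldn19, the lowest of the 8 without it.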

How the results depend on the processing

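No fold change given for a named member changed direction under any alternative run, but the members called did change. Without gfi1aa/1ab DM, loss of gfi1aa changed 5 keratins (9 with all libraries) and 2 claudins (5). Loss of gfi1b then changed 3 keratins (1), and these were other genes. krt94, which had fallen, lost its call, and krt18a.1, krt8 and krt91 gained one. Without WT, loss of gfi1aa changed 3 claudins. With 1 mean per side, the counts for keratins and claudins were 1 and 1 for gfi1aa, 0 and 0 for gfi1b (1 and 2), and 1 and 3 for gfi1ab (12 and 5). DESeq2 called 3 claudins for gfi1aa. Without the filter, 4 keratins changed for gfi1b, and 14 members changed in gfi1b-/- against WT (9), 18 in gfi1aa/1b DM against WT (11) and 17 in gfi1aa/1b DM against gfi1b-/- (10). With only the libraries compared these were 16, 17 and 23, and gfi1 TM gave 0 against WT (12) and 0 against gfi1b/1ab DM (2). Calls over all genes fell in the same gfi1 TM runs. Against WT they went from 1426 higher and 1184 lower to 80 and 73. Against gfi1b/1ab DM they went from 209 higher and 181 lower to 13 and 4. With the replicate block, loss of gfi1b changed 0 keratins; the libraries share only a number, and the block changed no other count by over 1.5 times.

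With 1 library left out, a lone library was assumed to vary like the other genotypes. Loss of gfi1aa changed 8 to 12 keratins and 2 to 6 claudins, loss of gfi1b 0 to 2 and 2 to 4, and loss of gfi1ab 9 to 13 and 4 to 7. Against WT, gfi1aa-/- changed 1 to 10 members (1 without WT replicate 2), gfi1b-/- 2 to 12 (2 without gfi1b-/- replicate 2), gfi1ab-/- 7 to 18 (7 without gfi1ab-/- replicate 2), gfi1aa/1b DM 5 to 15 (5 without either of its libraries or WT replicate 2), gfi1aa/1ab DM 11 to 22 (11 without gfi1aa/1ab DM replicate 1), gfi1b/1ab DM 5 to 12 (5 without gfi1b/1ab DM replicate 1) and gfi1 TM 7 to 14 (7 without WT replicate 2). Loss of gfi1aa changed 3 to 14 in the gfi1b-/- background, 9 to 19 in gfi1ab-/- and 0 to 3 in gfi1b/1ab DM. With 2 libraries a genotype and members under 1 CPM, small differences were not detectable.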

Other observations

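Lists of other tissues that hold keratin- or claudin-bearing epithelia, and of muscle as a sign of stage, gave these counts for libraries without against with gfi1aa, where 14.5% of all genes changed. Of 7 hatching gland gene entries, 1 rose and 2 fell, and all 3 share the symbol ctslb (close copies whose reads may be split); the list summed to 511 to 832 CPM without gfi1aa and 649 to 823 CPM with it. Of 7 pronephros genes, 2 rose (atp1a1a.4 and cdh17), summing to 178 to 239 CPM without gfi1aa and 172 to 198 CPM with it. Of 7 otic genes, 1 fell (stm), summing to 414 to 465 CPM without gfi1aa and 399 to 528 CPM with it. Of 12 skeletal muscle genes, 1 fell (smyhc1), summing to 1886 to 2298 CPM without gfi1aa and 2001 to 2394 CPM with it. Without gfi1ab, where 23.9% of all genes changed, 5 of the muscle genes rose and 1 fell, and 1 of 9 notochord genes rose and 6 fell. Their part in the keratin and claudin values was not tested.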
